A study of Mus musculus with 6 samples.

Results

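The cells described here are monocyte-primed progenitors of mouse bone marrow, chosen from single-cell transcript counts. A cell was taken when its library was from marrow, it held at least 500 UMIs (unique molecular identifiers, 1 per counted transcript) and at most 10% of them were mitochondrial. It also had to hold at least 10 Mpo transcripts per 10000 UMIs of the cell (CP10k), at least 3 CP10k of F13a1 and Ly86 together with that sum above Elane, and under 100 CP10k of Camp, Ngp and Ltf together. This rule found 554 cells among the 28055 cells of the series, and among 19522 marrow cells that passed the UMI and mitochondrial limits. All mice were wild-type. Per the labels, Gr1+ and c-kit+ fractions of the marrow were enriched in every group. The 4 marrow groups, with 1 droplet library each (10x Genomics Chromium, 3′ chemistry), were young mice at steady state without treatment, aged mice at steady state without treatment, young mice in which the middle cerebral artery had been occluded 24 h earlier (experimental stroke), and aged mice 24 h after the same procedure. Neither the ages of the mice nor the number of mice per library is given in the sources used here. With 1 library per group no difference below was tested against the spread between animals, and every interval is a 95% interval for counting error only.

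Monocytes and neutrophils arise from shared granulocyte and monocyte progenitors of the marrow. On the monocyte path, the transcription factor Irf8 restrains neutrophil genes while the cell still makes the primary (azurophil) granule proteins, among them myeloperoxidase, that both lineages load early. Monocyte-committed progenitors are known to carry transcripts of F13a1 (the A subunit of coagulation factor XIII), Ly86 (MD-1, the partner of the receptor RP105) and Ms4a6c (a 4-span membrane protein of monocytic cells), and to divide before they become Ly6C-high monocytes.

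The 4 genes that drew the gate between monocyte-primed and neutrophil-primed cells are shown by the bases just upstream of their gene starts, because the cells are defined by how these genes are balanced. The windows are those of RefSeq (GRCm38.p6), 5′ to 3′ on the strand of the gene, cut at the start of the GENCODE gene. Mpo encodes myeloperoxidase (chr11:87793534-87793580, plus strand) and Elane encodes neutrophil elastase (chr10:79886062-79886246, plus strand). F13a1 (chr13:37050245-37050494, minus strand) and Ly86 (chr13:37345095-37345207, plus strand) lie on the same chromosome. Capitals mark GAGGAAGT, a form of the site bound by the myeloid factor PU.1.

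Mpo: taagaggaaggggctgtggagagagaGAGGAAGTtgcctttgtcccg

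Elane: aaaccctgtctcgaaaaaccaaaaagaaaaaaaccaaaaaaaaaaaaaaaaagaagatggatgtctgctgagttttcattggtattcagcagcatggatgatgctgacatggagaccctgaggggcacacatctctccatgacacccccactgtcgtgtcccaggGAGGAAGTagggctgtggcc

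F13a1: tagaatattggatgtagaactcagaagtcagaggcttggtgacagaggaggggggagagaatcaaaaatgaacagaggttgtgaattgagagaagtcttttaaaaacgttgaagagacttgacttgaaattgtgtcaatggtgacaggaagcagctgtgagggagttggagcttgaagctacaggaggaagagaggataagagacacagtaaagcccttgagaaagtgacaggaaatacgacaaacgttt

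Ly86: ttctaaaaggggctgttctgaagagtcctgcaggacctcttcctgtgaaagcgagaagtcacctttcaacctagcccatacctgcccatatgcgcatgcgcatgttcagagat

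Motif letters were searched on both strands of the 250 bases upstream of each RefSeq start. GAGGAAGT lay 224 bases upstream of the RefSeq start of Mpo and 85 bases upstream of that of Elane, and it was not in the windows of F13a1 and Ly86. Of 32851 promoter windows of that length, 2.44% held GAGGAAGT. The C/EBP letters TTGCNNAA (in 9.56% of all windows) and the RUNX letters TGTGGT (14%) were in none of the 4 windows, nor in those of Irf8 and Ms4a6c. No match overlapped another motif. A match of letters is a description of the window and not a bound site.

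The gate found 316 members in young and 189 in aged marrow at steady state, but 26 and 23 in young and aged marrow after stroke. At steady state the members made up 3.85% (exact Clopper-Pearson interval 3.44% to 4.29%) of 8213 young cells and 2.96% (2.56% to 3.40%) of 6389 aged cells. After stroke they made up 1.15% (0.751% to 1.68%) of 2265 young cells and 0.866% (0.550% to 1.30%) of 2655 aged cells. The young share was above the aged one in both contexts, and the intervals of the 2 ages overlapped only after stroke. Set against all Mpo-rich progenitors that leaned to either lineage, the members were 14.5% (13% to 16.0%), 12.5% (10.9% to 14.3%), 13.3% (8.90% to 18.9%) and 7.42% (4.76% to 10.9%) in the same order. The steady-state intervals overlap on this scale. The enrichment for Gr1+ and c-kit+ cells helps to set each share, and its part in these differences was not tested.

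Depth separated the members of the 2 contexts. Over all marrow cells within the UMI and mitochondrial limits it did not. Their medians were 7743 and 9150 UMIs in young and aged marrow at steady state, and 7981 and 11255 UMIs after stroke. The median member held 11448 UMIs in young and 15490 UMIs in aged steady-state marrow, and 884.5 UMIs and 1936 UMIs in young and aged marrow after stroke. At steady state all members held between 2855 and 29689 UMIs. After stroke, 21 of 26 young and 12 of 23 aged members held fewer than 2500 UMIs, while 3 and 9 members held more than 30000 UMIs and supplied 86.1% and 94.5% of the members' UMIs. Values for marrow after stroke therefore describe a few deep cells, and many shallow cells entered the gate on little evidence: 15 of 26 young and 9 of 23 aged members held a single UMI of F13a1 or Ly86. At steady state 1 of 316 young and 0 of 189 aged members did so. No member barcode was found in another marrow library, although pairs of libraries shared 5 to 21 barcodes. The stroke groups and this depth of their members cannot be told apart.

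**Figure D1:**
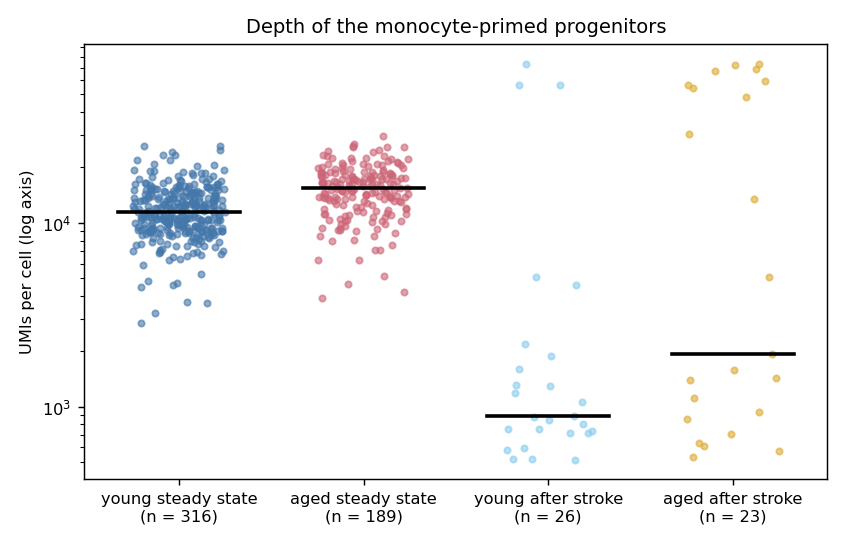
UMIs per cell (vertical log axis) of every monocyte-primed progenitor in the 4 marrow libraries, 1 point per cell, with the median as a bar. The steady-state members lie between 2855 and 29689 UMIs, whereas the stroke members split into shallow cells (medians 884.5 and 1936 UMIs overall) and 3 and 9 cells above 30000 UMIs.

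The name was checked against the 5 markers F13a1, Ly86, Mpo, Irf8 and Ms4a6c, of which Irf8 (chromosome 8 from 120736358 to 120756694 on GRCm38) and Ms4a6c (chromosome 19 from 11469366 to 11482192) were not used by the gate. At least 1 Irf8 UMI was seen in 313 of 316 young and 187 of 189 aged steady-state members, and a Ms4a6c UMI in 311 and 187. After stroke only 6 of 26 young and 12 of 23 aged members held an Irf8 UMI, and 8 and 13 held a Ms4a6c UMI. To compare cells at 1 depth, each cell was thinned to 3000 UMIs, which left out 1 young and 0 aged members and 3 B lineage cells of each age at steady state. Ms4a6c then had a UMI in 91.1% of young members (87.4% to 94.0%) and in 89.4% of aged ones (84.1% to 93.4%). The shares were 21.2% and 27.4% of B lineage cells of the same libraries. That class was gated on Cd79a and Cd79b without a limit on myeloid genes. It held S100a8 at 36468 and 42704 CPM and Mpo at 794 and 528 CPM in young and aged steady-state marrow. B lineage values here and below are thus not those of cells without myeloid transcripts, and the source of these UMIs was not tested. The unthinned shares were 98.4% and 98.9% of members and 25.2% and 29.9% of B lineage cells, whose median depths were 4516 and 5407 UMIs. For Irf8, which B cells also express, the thinned shares were 92.7% and 90.5% of members and 40.4% and 38.1% of B lineage cells. Of the neutrophil-primed progenitors described below, 49.6% and 46.7% held an Irf8 UMI after thinning, and 50.4% and 50.9% a Ms4a6c UMI. A UMI of either marker is thus not particular to the members. At steady state nearly all members thus carried the markers, and most stroke members were too shallow to be checked, since thinning left out 21 of 26 and 12 of 23 of them. Of the stroke members deep enough, 2 of 5 young and 4 of 11 aged ones held an Irf8 UMI at that depth, 1 and 3 held a Ly86 UMI, and 5 and 6 held a Ms4a6c UMI. Ms4a3, a gene of granulocyte and monocyte progenitors, had a UMI in 5 of 5 and 9 of 11 of them, against 15.2% and 21.7% of young and aged steady-state members. Without thinning, every stroke member above 30000 UMIs held Irf8, at 0.833 to 3.54 CP10k, so Irf8 was low in these cells and not absent. Summed over the young and aged stroke members it stood at 297 and 159 CPM, against 1247 and 947 CPM at steady state. On the level of Irf8 most of the deep stroke cells thus go against the name, and the stroke members are members by the gate only.

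The 7 genes of the gate had the levels the gate asks for, and these are given as a description. Summed over the members of a library and scaled to counts per 1000000 (CPM), Mpo stood at 2922 and 2833 CPM in young and aged members at steady state, and at 2137 and 1546 CPM after stroke. F13a1 stood at 890.1, 912, 519 and 366 CPM in the same order, and Ly86 at 355, 323, 176 and 227 CPM. Elane stood at 417, 506, 181 and 357 CPM. In B lineage cells of the same libraries Elane stood at 645, 395, 50.9 and 112 CPM, so the Elane level of young steady-state members did not exceed that of B lineage cells, while their Mpo (794 and 528 CPM in young and aged steady-state B lineage cells) and F13a1 (70.0 and 92.9 CPM) did. After thinning, an Elane UMI was seen in 58.4% of young and 72% of aged members and in 34.6% and 35.7% of B lineage cells (88.9%, 93.7%, 52.3% and 47.1% unthinned). The granule genes Camp, Ngp and Ltf summed to little: Camp stood at 284 and 226 CPM in steady-state members and at 6798 and 7700 CPM in B lineage cells.

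Many cells stood near the limits of the gate. At steady state 62 young and 28 aged members held 10 to 15 CP10k of Mpo, and 150 and 73 otherwise fitting cells held 5 to 10 CP10k and stayed outside. On F13a1 and Ly86, 11 and 9 members held 3 to 4 CP10k, and 27 and 14 cells with 2 to 3 CP10k stayed outside. Among Mpo-rich cells with enough F13a1 and Ly86, the Elane condition removed 906 of 1230 young and 655 of 847 aged cells. Of those removed, 29 young and 21 aged cells missed it by under 2 CP10k, while 29 and 25 members passed it by as little. The granule condition removed 8 and 3 cells.

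Against neutrophil-primed progenitors of the same libraries (Mpo-rich cells in which Elane was at least F13a1 plus Ly86; 1870 young and 1322 aged cells at steady state), the members carried more transcripts of the receptor genes Csf1r, Ccr2, Flt3 and Il6st. The 2 classes were cut apart by measured genes, so these ratios describe the cells and were not tested. Csf1r, the receptor for the monocyte growth factor CSF1, stood at 145 and 122 CPM in young and aged members and at 52.1 and 52.7 CPM in neutrophil-primed cells. Ccr2, the chemokine receptor by which classical monocytes leave the marrow, stood at 270.0 and 298 CPM against 126 and 119 CPM. Flt3, the receptor of early lymphoid and dendritic progenitors, stood at 107 and 103 CPM against 17.7 and 19.5 CPM, and Il6st, the shared gp130 chain of the interleukin 6 receptor family, at 162 and 155 CPM against 40.8 and 36.0 CPM. All 4 were higher in the members of both ages, on the log2 scale by 1.48 and 1.21 for Csf1r and by 2.59 and 2.4 for Flt3. Kit, the stem cell factor receptor of early progenitors, stood lower, at 59.9 and 51.6 CPM against 88.1 and 84.2 CPM, and had a UMI in 16.5% and 12.7% of members after thinning against 22.1% and 23.8% of neutrophil-primed cells (46.8% and 46.0% against 60.1% and 66.6% unthinned). The thinned shares of Kit in B lineage cells, 19.2% and 13.1%, were as high as those of the members. Ly6c2, a marker of classical monocytes, was also seen in fewer members. After thinning it had a UMI in 67.9% and 68.8% of young and aged members against 86.3% and 80.7% of neutrophil-primed cells. The unthinned shares were 83.2% and 89.4% against 93.6% and 92.3%.

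Irf8 itself stood at 1247 and 947 CPM in young and aged members against 454 and 353 CPM in neutrophil-primed cells. Ms4a6c stood at 882 and 879 CPM against 409 and 400.2 CPM. The D-type cyclin gene Ccnd1 stood at 94.6 and 111 CPM against 31.2 and 39.5 CPM, and the peroxiredoxin gene Prdx4 at 237 and 232 CPM against 83.6 and 79.5 CPM. Tmem109, Ppfia4, Lat2, 1700025G04Rik, Tpm4 and Mndal completed the 15 genes with the steadiest excess in the 4 libraries (F13a1, Ly86 and Irf8 included), with log2 ratios of 0.89 to 2.39 at steady state.

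Among the genes with the steadiest deficit against neutrophil-primed cells were Cebpe, Nkg7, Cd63 and Srgn. Cebpe, the transcription factor of secondary granule formation, stood at 4.77 and 4.44 CPM in young and aged members and at 109 and 102 CPM in neutrophil-primed cells. Nkg7, a granule membrane gene, stood at 81.6 and 88.1 CPM against 824 and 798 CPM. Cd63, a tetraspanin of azurophil granule membranes, stood at 31.5 and 39.9 CPM against 381 and 383 CPM. Srgn, the serglycin proteoglycan that packs granule proteases, stood at 587 and 615 CPM against 2342 and 2374 CPM. Ms4a3, a 4-span gene of granulocyte and monocyte progenitors, was not given by the naming rule. It stood at 82.4 and 108 CPM against 1334 and 1384 CPM at steady state, but at 589 and 1147 CPM in stroke members. Besides the gate gene Elane, the other genes that the naming rule gave in this direction were Gstm1, Chst13, Pglyrp1, Cldn15, Vat1, Clec4a2, Mgst2, Dstn, Hdc and Trem3. The log2 ratios of these 10 genes ran from −3.85 to −1.91 at steady state.

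Not all azurophil genes were low. Prtn3 (proteinase 3) stood at 2389.6 and 2945 CPM in young and aged members, against 6530.1 and 6924 CPM in neutrophil-primed cells and 808 and 883 CPM in classical monocytes. Ctsg (cathepsin G) stood at 1849 and 1988 CPM, against 5279.6 and 5466 CPM and against 366 and 310.2 CPM. Both therefore lay between the other classes at both ages. After thinning, 96.5% and 98.4% of young and aged members held a Prtn3 UMI.

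Against classical monocytes (Mpo-poor, Ly6c2-rich cells with Csf1r or Ccr2; 1093 young and 886 aged cells at steady state), the members carried more Cd34, Cdk6, Myb and Myc transcripts. Cd34, the stem and progenitor surface sialomucin, stood at 301 and 273 CPM in young and aged members and at 53.1 and 36.3 CPM in monocytes. Cdk6, a G1 kinase, stood at 563 and 554 CPM against 139 and 121 CPM. Myb, a transcription factor of immature blood cells, stood at 279 and 215 CPM against 83.3 and 65.2 CPM, and Myc at 111 and 78.2 CPM against 21.8 and 19.4 CPM. Mif, Srm and Egfl7 were higher too, with log2 ratios of 1.90 to 2.38.

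Fn1, Lgals3 and Lyz2 were lower than in monocytes. Fn1 (fibronectin) stood at 74.5 and 51.6 CPM in young and aged members and at 1052 and 1394 CPM in monocytes. Lgals3 (galectin 3) stood at 131 and 129.7 CPM against 1615 and 2001 CPM, and Lyz2 (lysozyme) at 1109 and 905 CPM against 12468 and 14544 CPM. Tgfbi, S100a4, Crip1, Clec4a2, Chil3, Wfdc17 and C3 were lower by 2.92 to 3.84 on the log2 scale. Klf4, a factor of late monocyte differentiation, stood at 76.0 and 64.5 CPM against 425 and 320.4 CPM. Irf8 stood at 1420 and 1034 CPM in monocytes, above the members at both ages.

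**Figure D2:**
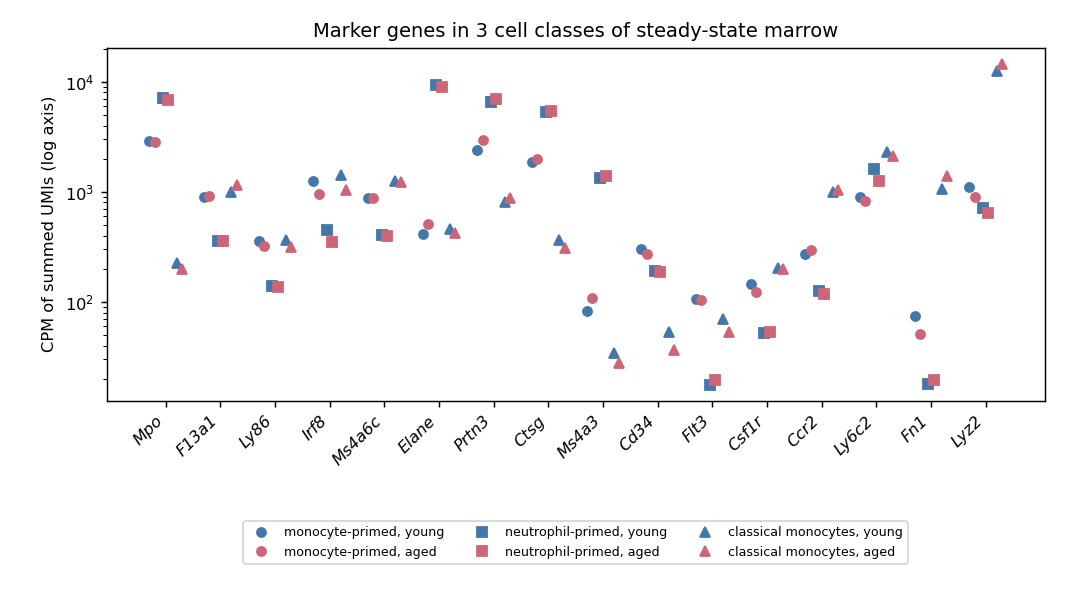
CPM of summed UMIs (vertical log axis) of 16 genes in monocyte-primed progenitors (circles), neutrophil-primed progenitors (squares) and classical monocytes (triangles) of young and aged steady-state marrow, 1 point per class and library. Prtn3 and Ctsg of the members lie between the other classes, Cd34 lies highest in the members, and Fn1 and Lyz2 lie far below the monocytes.

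Markers of the B, T and NK, erythroid, megakaryocyte, eosinophil and macrophage lineages summed to under 100 CPM each in the steady-state members. The 8 B lineage markers summed to 68.9 and 74.8 CPM in young and aged members, the 8 T and NK markers to 87.4 and 91.8 CPM, the 9 erythroid markers to 60.4 and 60.4 CPM, the 6 megakaryocyte markers to 14.3 and 8.54 CPM, the 6 eosinophil markers to 8.21 and 15 CPM and the 8 macrophage markers to 67.8 and 48.5 CPM. The 8 stem cell markers summed to 346 and 326 CPM, the 6 lymphoid progenitor markers to 319 and 295 CPM, the 8 conventional dendritic cell markers to 209 and 192 CPM and the 8 plasmacytoid dendritic cell markers to 494 and 398 CPM. The 8 basophil and mast cell markers summed to 130 and 565 CPM at steady state and to 27.8 and 1146 CPM after stroke. Of the Prss34 UMIs of aged stroke members, 301 of 305 lay in 1 cell. The 10 markers of maturing neutrophils summed to 6108 and 5934 CPM, of which S100a8 alone made up 2099 and 1982 CPM, against 36468 and 42704 CPM of S100a8 in B lineage cells. The 10 classical monocyte markers summed to 3400.0 and 3286 CPM. The 8 markers of neutrophil-primed cells summed to 7678 and 8397 CPM and the 5 markers of the members to 6296 and 5894 CPM. In steady-state neutrophil-primed cells these lists summed to 2664 and 2280, to 29754 and 29870, and to 8439 and 8135 CPM. The 5 markers, Mpo included, thus summed to less in the members than in neutrophil-primed cells. Of the B lineage, T and NK, and macrophage markers, 1 of 8, 1 of 8 and 1 of 8 were at 0 in young members, and 1, 3 and 1 in aged members. Their part in the results was not tested.

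The members were not all alike. Ranked by Mpo and split at 20.3 and 32.6 CP10k, the same limits in both ages, they formed groups of 108, 95 and 113 young and 60, 73 and 56 aged cells. Since the gate used Mpo, these values describe how other genes vary along it. Irf8 stood at 1511, 1258 and 1009 CPM from the low to the high group in young marrow, and at 1115, 949 and 766 CPM in aged marrow. Klf4 stood at 110.4, 86.4 and 36.8 CPM and at 96.3, 70.5 and 22.5 CPM. Both were lower in each step toward high Mpo, in both libraries.

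Lgals3 stood at 200.4, 166 and 39.8 CPM in young and at 206, 113 and 72.2 CPM in aged members, and Lyz2 at 1453, 1239 and 692 CPM and at 1049, 1078 and 510.5 CPM. Fn1 stood at 84.9, 126 and 18.4 CPM and at 71.6, 59.6 and 19.0 CPM. These 3 genes were lowest where Mpo was highest. F13a1, itself a gate gene, did not follow them, with 818, 935 and 912 CPM in young and 845, 934 and 952 CPM in aged members. Elane stood at 251, 415 and 564 CPM in young and at 325, 499 and 707 CPM in aged members, Prtn3 at 1638, 2389 and 3042 CPM and at 2156, 2943 and 3783 CPM, and Ctsg at 1206, 1835 and 2419 CPM and at 1522, 1924 and 2571 CPM. These azurophil proteases followed Mpo at both ages. Cd34 stood at 236, 312 and 347 CPM and at 247, 281 and 288 CPM.

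Dntt and Ly6d were highest at the Mpo-low end. Dntt, the terminal transferase of lymphoid progenitors, stood at 71.3, 13.7 and 5.16 CPM in young members, and at 106, 9.23 and 0 CPM in aged ones. These counts came from few cells: 32 young members held 108 Dntt UMIs and 17 aged members held 106, with 45.4% and 60.4% of them in the 2 richest cells. Ly6d stood at 149, 47.6 and 10.3 CPM in young and at 26.9, 1.68 and 2.37 CPM in aged members. Flt3 stood at 145, 86.4 and 91.3 CPM in young and at 102, 105 and 102 CPM in aged members, so it was highest at that end in the young library only. Other genes did not follow Mpo: Ms4a6c stood at 849, 934 and 865 CPM in young and 893, 908 and 822 CPM in aged members, and Csf1r at 143, 137 and 155 CPM and at 129.8, 121 and 115 CPM. The median depths of the groups were 10074, 12923 and 11888 UMIs in young and 14671, 16615 and 15264.5 UMIs in aged members.

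**Figure D3:**
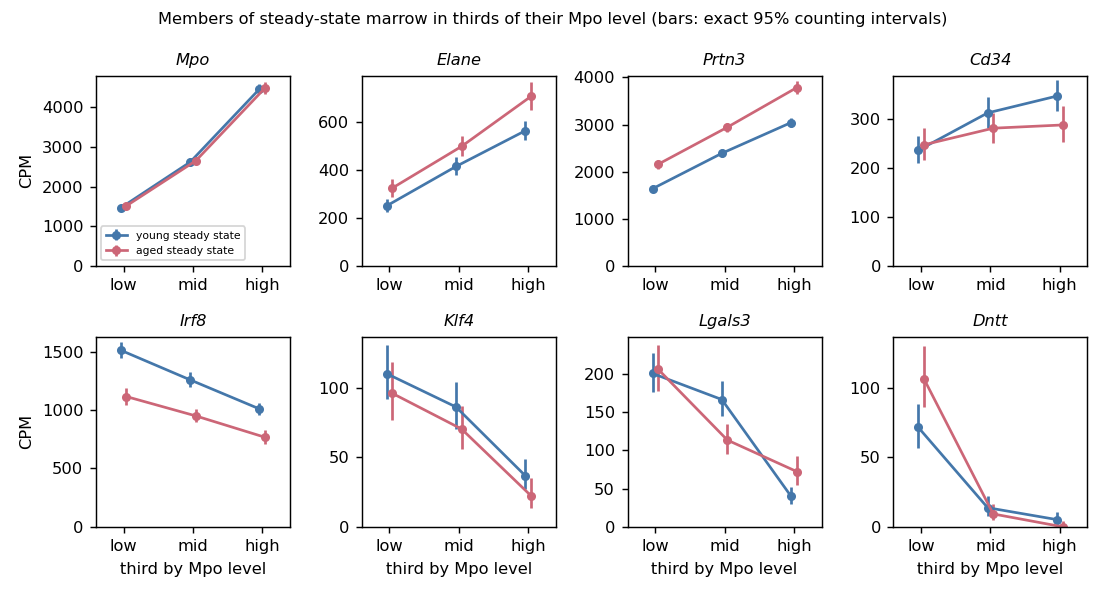
CPM (vertical axes, starting at 0) of 8 genes in members of steady-state marrow split by their own Mpo level, with exact Poisson 95% intervals for counting error, young and aged libraries as separate lines. Elane, Prtn3 and Cd34 are higher and Irf8, Klf4, Lgals3 and Dntt lower at the high end of Mpo in both libraries.

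Most members held UMIs of several cell cycle genes, and no cycling is read from these lists alone. After thinning to 3000 UMIs, 88.9% of young members (84.9% to 92.1%) and 89.4% of aged members (84.1% to 93.4%) at steady state held at least 5 UMIs of 25 S phase genes, and 64.8% (59.2% to 70.0%) and 66.7% (59.5% to 73.3%) held at least 5 UMIs of 30 G2 and M phase genes. The S phase shares were 90.0% and 89.9% in neutrophil-primed cells, 56.3% and 51.9% in classical monocytes, and 31.7% and 28.6% in B lineage cells. The G2 and M phase shares were 62.7% and 68.0%, then 61.4% and 57.3%, then 22.1% and 22.6% in the same classes. Without thinning the members' shares were 98.7% and 99.5% for S phase and 91.5% and 96.3% for G2 and M phase. Young and aged members differed by less than their intervals on both lists after thinning. Mki67, the proliferation antigen, stood at 489.7 and 469 CPM and Top2a, the topoisomerase of dividing cells, at 651 and 662 CPM in young and aged members.

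The comparison of age asks whether aged marrow holds monocyte-primed cells with another transcript profile. It was made between the 2 steady-state libraries, since the planned model over 4 libraries needed 30 cells in each. Over 6074 genes with a mean of at least 20 CPM in these 2 libraries, the median log2 ratio of aged over young was 0.02. A ratio of at least 2-fold higher in aged members was reached by 4 genes, 0.0659% of those measured, and one of at least 2-fold lower by 7 genes, 0.115%, so 0.181% in either direction. The counting interval lay above 0 for 565 genes (9.3%) and below 0 for 369 genes (6.08%), so that 15.4% had an interval outside 0 in either direction. These intervals hold no difference between animals, and they name no gene as changed with age. They are narrower for genes with more UMIs, so the counts of list genes below also depend on level.

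The genes that were 2-fold higher in aged members were Prss34, Mcpt8, Cpa3 and Rsrp1. Prss34 and Mcpt8 encode serine proteases of basophils and Cpa3 a carboxypeptidase of basophils and mast cells. Prss34 stood at 41.9 CPM in young and 310 CPM in aged members at steady state, and at 4.64 and 545 CPM after stroke. In aged stroke members 301 of its 305 UMIs lay in 1 cell. Of its 907 UMIs in aged steady-state members, 97.5% lay in 2 cells, as did 77.8% of its 158 UMIs in young ones. Mcpt8 stood at 46.1 and 181 CPM at steady state, with 83.6% of its 530 aged UMIs in 2 cells, and Cpa3 at 14.0 and 32.1 CPM, with 77.7% of 94 UMIs in 2 cells. When cells with at least 20 CP10k of Prss34 were left out, a choice made after the values had been seen, 1 of the 4 genes, Rsrp1, still reached 2-fold. Rsrp1, which encodes an arginine- and serine-rich nuclear protein, stood at 222 and 511 CPM, a log2 ratio of 1.20 (1.08 to 1.33). The log2 ratio of Rsrp1 was 1.11 in neutrophil-primed cells and 1.24 in classical monocytes of the same libraries, and it stood at 158 and 120 CPM in young and aged members after stroke.

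The 7 genes that were 2-fold lower in aged members were Ly6d, Gm34680, Btg2, Gm26699, Cd69, Chek2 and Ifi27l2a. This list of 11 genes was read off after the values had been seen. Ly6d, a surface protein of lymphoid and plasmacytoid dendritic cell precursors, stood at 66.0 CPM in young and 9.56 CPM in aged members, a log2 ratio of −2.79 (−3.41 to −2.22). Its 249 young UMIs came from 32 cells, with 61% in 2 of them, and its 28 aged UMIs from 10 cells. Without cells of at least 10 CP10k of Ly6d, 4 of the 7 genes remained. Btg2, an antiproliferative immediate early gene, stood at 38.4 and 15.4 CPM (log2 ratio −1.32, interval −1.84 to −0.83). Cd69, an early activation antigen, stood at 37.9 and 18.4 CPM, and Chek2, a DNA damage checkpoint kinase, at 27.6 and 13.7 CPM. Ifi27l2a, an interferon-stimulated gene, stood at 63.1 CPM with UMIs in 101 young members and at 31.4 CPM with UMIs in 33 aged members. The log2 ratio of Ifi27l2a was −1.01 in the members, −1.09 in neutrophil-primed cells and −0.69 in classical monocytes. All 7 genes had a negative ratio in both of those classes, and whether the members' ratios differ from theirs was not tested.

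Irf8 had the deepest counts among the factors of monocyte fate. It stood at 1247 CPM in young and 947 CPM in aged members, a log2 ratio of −0.40 (−0.47 to −0.33), and its ratio was −0.36 in neutrophil-primed cells and −0.46 in classical monocytes. Lower Irf8 in the aged library was thus seen in each of the 3 classes. Runx1, a factor of early blood cells, stood at 216 and 177 CPM (−0.29) and Zeb2, a repressor that acts in dendritic and monocyte fate, at 240.1 and 207 CPM (−0.22). These 3 were lower with an interval below 0 among 10 measured factors of the list of 14, none was higher, and the median log2 ratio was −0.08 against 0.02 over all genes. Over all genes the interval lay below 0 for 6.08% and above it for 9.3%. Spi1, which encodes PU.1, stood at 240.3 and 237 CPM, Klf4 at 76.0 and 64.5 CPM, Cebpa at 42.7 and 41.7 CPM and Cebpb at 97.2 and 104 CPM, each with an interval that held 0. Of the 5 granulocyte fate factors, only Cebpd was measured, at 74.5 and 65.9 CPM.

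Among 17 measured receptors for growth factors and cytokines, Ccr2 was higher and Csf1r and Cx3cr1 were lower by the counting interval, and the median log2 ratio was −0.13. A count of 3 of 17 is near the 15.4% of all genes with an interval outside 0, so nothing is read from it about the receptors. Csf1r stood at 145 and 122 CPM (log2 ratio −0.25, interval −0.45 to −0.06). Cx3cr1, the fractalkine receptor, stood at 121 and 95.9 CPM (−0.34, −0.56 to −0.12). In neutrophil-primed cells and classical monocytes the ratios were 0.02 and −0.01 for Csf1r and 0.07 and −0.02 for Cx3cr1. The receptors Kit, Flt3, Csf2ra, Csf2rb and Il6ra had intervals that held 0, with log2 ratios of −0.22, −0.05, −0.18, 0.20 and −0.17.

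Among 30 measured genes of monocyte differentiation, 4 were higher and 9 lower by the interval, with a median of −0.02. The shares over all genes were 9.3% higher and 6.08% lower. Fn1 stood at 74.5 and 51.6 CPM, with a log2 ratio of −0.53 (−0.83 to −0.24), while it was 0.14 in neutrophil-primed cells and 0.41 in monocytes. Lyz2 stood at 1109 and 905 CPM (−0.29, against −0.14 and 0.22). Grn, which encodes progranulin, stood at 141 and 115 CPM, and Tifab, an inhibitor of TRAF6 signalling, at 234 and 185 CPM. The genes Ifi30 (a lysosomal thiol reductase; 143 and 185 CPM), Anxa2 (annexin A2; 212 and 252 CPM), Ccl9 (a chemokine; 188 and 215 CPM) and Ccr2 were higher. Ms4a6c and F13a1 had log2 ratios of −0.01 and 0.04, with intervals that held 0.

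Of 11 measured azurophil granule genes, 5 were higher in aged members by the interval and 1, Mpo, was lower with a log2 ratio of −0.04, and the median was 0.11. By the same interval 9.3% of all genes were higher and 6.08% lower. Prtn3 stood at 2389.6 and 2945 CPM, a log2 ratio of 0.30 (0.26 to 0.34), against 0.08 in neutrophil-primed cells and 0.13 in monocytes. Elane stood at 417 and 506 CPM (0.28, against −0.05 and −0.13), and Ms4a3 at 82.4 and 108 CPM (0.39, against 0.05 and −0.32). Prss57, a serine protease of azurophil granules, stood at 44.0 and 66.2 CPM, with a ratio of 0.59 (0.28 to 0.90) against 0.09 and 0.16. Ctsg had a ratio of 0.10. The gate limits Elane and asks for Mpo, so both are set in part by the rule. Aged members were also deeper, with a median of 15490 UMIs against 11448, and the part of depth in these differences was not tested.

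The stem and early progenitor list had 1 of 12 measured genes higher (Prtn3) and 3 lower, with a median of −0.08. Among all genes 9.3% were higher and 6.08% lower. Myb stood at 279 and 215 CPM (log2 ratio −0.37), Sox4, a factor of immature progenitors, at 331 and 276 CPM (−0.26), and Cd34 at 301 and 273 CPM (−0.14, interval −0.27 to −0.01). Myc, named by the comparison with monocytes, stood at 111 and 78.2 CPM with a ratio of −0.50 (−0.74 to −0.27).

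Of 15 measured interferon-stimulated genes of 51, 7 were lower in aged members and 1 higher by the interval, and 7 had an interval that held 0, with a median of −0.19, and 1 gene, Ifi27l2a, reached 2-fold. For all genes the shares were 6.08% lower and 9.3% higher. Of the Ifi200 family of nuclear DNA sensors, Ifi209 stood at 129 and 95.3 CPM (log2 ratio −0.44) and Ifi203 at 139 and 105.5 CPM (−0.39). Ly6e, the most abundant gene of the list, stood at 1380.0 and 1305 CPM (−0.08). The gene in the other direction was Gbp7, a guanylate-binding protein, at 15.6 and 27.3 CPM (0.80, interval 0.30 to 1.32). The list's median was −0.11 in neutrophil-primed cells and −0.08 in monocytes.

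Of 10 measured immediate early and dissociation stress genes, 5 were lower, 1 was higher and 4 had an interval that held 0, with a median of −0.35. Beside this, 6.08% of all genes were lower and 9.3% higher. The sum of the list was 2289 and 2341 CPM in young and aged members, a log2 ratio of 0.03, so the median and the sum differ in sign. Jun stood at 75.8 and 39.9 CPM (log2 ratio −0.92, interval −1.25 to −0.61), Zfp36, which destabilises cytokine transcripts, at 27.8 and 17.8 CPM (−0.65), and Jund at 50.9 and 36.5 CPM (−0.48). The chaperone gene Hsp90aa1 was higher, at 971 and 1170 CPM (0.27). Jun also had negative ratios in neutrophil-primed cells (−0.67) and monocytes (−0.52).

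Of 32 measured oxidative phosphorylation genes, 15 were higher in aged members, 0 were lower and 17 had an interval that held 0, with a median of 0.09, and examples are Cox5b (637 and 749 CPM, log2 ratio 0.23) and Atp5g1 (586 and 692 CPM, 0.24). Of 13 measured genes of glycolysis and hypoxia, 6 were higher, 0 were lower and 7 had an interval that held 0, with a median of 0.16. Both lists stand beside 9.3% of all genes higher and 6.08% lower. Gapdh stood at 679.9 and 917 CPM (0.43, against 0.49 in both other classes), Eno1 at 79.2 and 121 CPM (0.61, against 0.50 and 0.60) and Ldha at 568 and 685 CPM (0.27, against 0.29 and 0.21). The glycolysis list had medians of 0.20 and 0.19 in neutrophil-primed cells and monocytes.

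The other lists showed no common direction. Their counts stand beside 9.3% of all genes higher and 6.08% lower by the interval. S phase genes had 2 of 24 higher and 3 lower (median −0.10), G2 and M phase genes 5 of 29 higher and 3 lower (−0.05), MHC class I presentation genes 4 of 17 higher and 3 lower (−0.01), and ribosomal protein genes 15 of 47 higher and 22 lower (−0.03). Dendritic and MHC class II genes had 1 of 6 higher and 2 lower (−0.11), with Cd74, the invariant chain, at 44.3 and 27.0 CPM. Late neutrophil genes had 3 of 12 higher and 4 lower (−0.09), and glucocorticoid-responsive genes 1 of 5 higher and 1 lower (0.06), with the metallothionein Mt1 at 65.2 and 109 CPM. Both measured NF-kB genes had intervals that held 0.

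**Figure D4:**
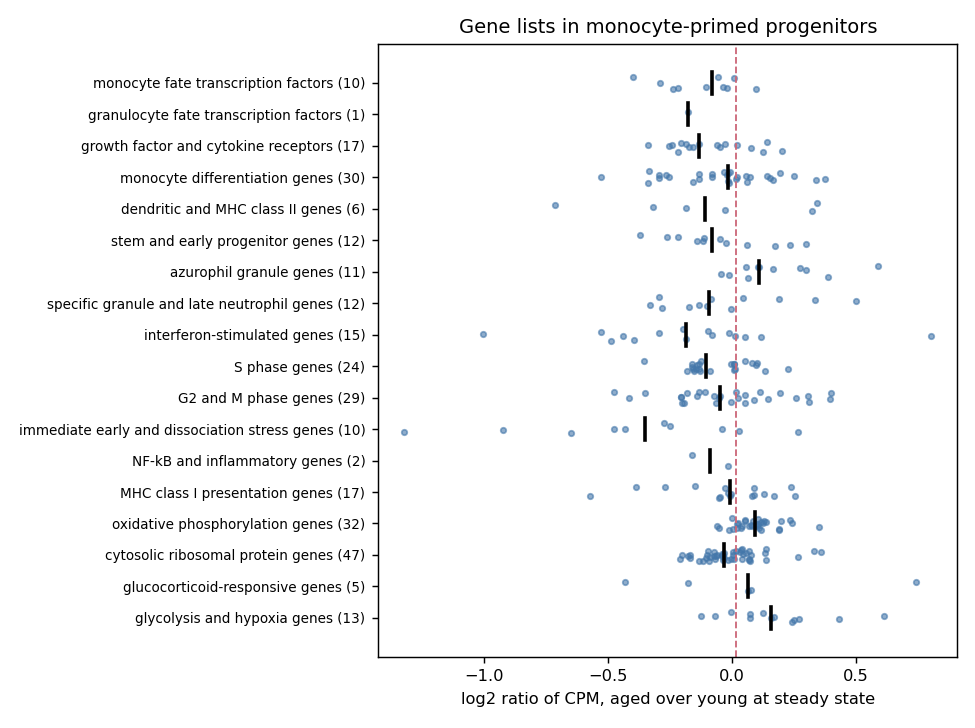
Log2 ratio of CPM, aged over young members at steady state, for each measured gene (point) of 18 gene lists, with the number measured in brackets, the list median as a bar and the median of all 6074 genes (0.02) as a dashed line. The medians of the immediate early and interferon-stimulated lists (−0.35 and −0.19) lie below 0, and those of the oxidative phosphorylation and glycolysis lists (0.09 and 0.16) above it.

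The ranking rule for age looked for genes that differed in the same direction at steady state and after stroke. Its stroke side rests mostly on 3 young and 9 aged cells. Besides Prss34, Mcpt8 and Cpa3 it gave as higher Gm10736, Scap, Lsm3, Rilpl2, Zmpste24, Hax1, H1f0, Sec61g and Gm19810, with log2 ratios of 0.61 to 0.83 at steady state. In aged stroke members, 301 of 305 Prss34, 206 of 210 Mcpt8 and 57 of 57 Cpa3 UMIs lay in 1 cell for each gene. As lower the rule gave Jun, AY036118, mt-Rnr2, mt-Rnr1, Gm11942, Dusp2, Klrb1f, Il12a, Foxred1, Gm7600, Cd180 and Nt5m, with ratios of −0.99 to −0.69. The mitochondrial ribosomal RNA mt-Rnr2 had the highest counts of these, at 3441 and 2091 CPM in young and aged members at steady state and at 3050.1 and 1860.4 CPM after stroke. Its steady-state ratio of −0.72 was −0.71 in neutrophil-primed cells and −0.73 in monocytes. Il12a, which encodes the p35 chain shared by interleukins 12 and 35, stood at 46.4 and 25.9 CPM, and Cd180 (RP105, the partner of Ly86) at 40.8 and 25.3 CPM.

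**Figure D5:**
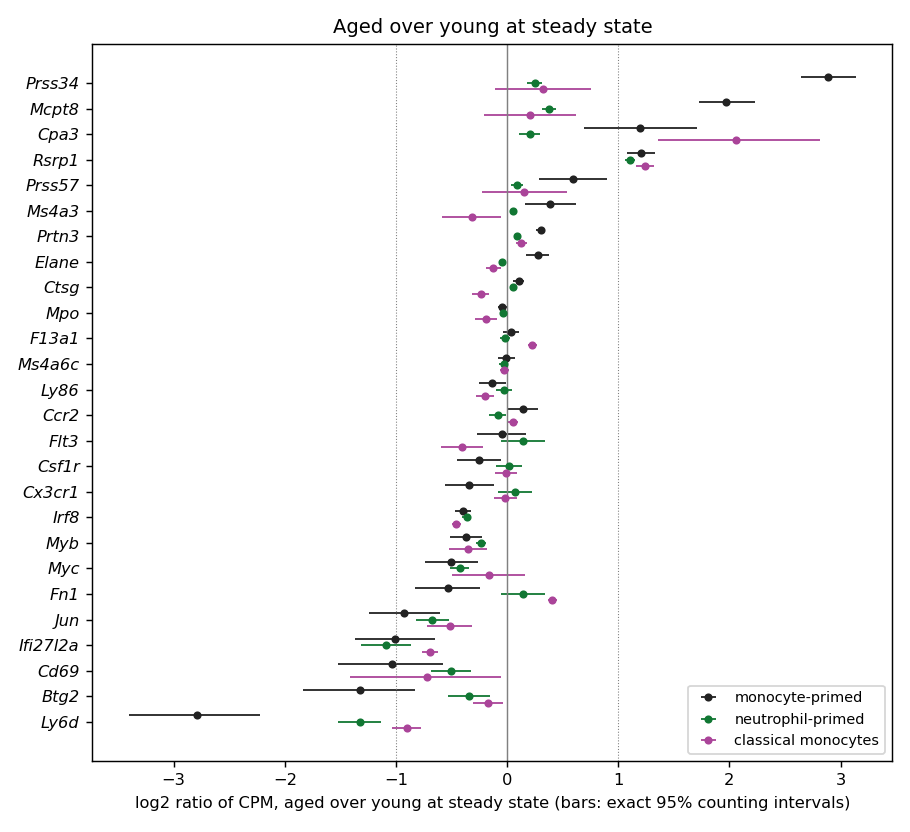
Log2 ratio of CPM, aged over young at steady state (horizontal axis), of 26 genes in monocyte-primed progenitors, neutrophil-primed progenitors and classical monocytes, with exact 95% counting intervals as bars and dotted lines at 2-fold. Irf8, Ifi27l2a and Rsrp1 have similar ratios in the 3 classes, while Prtn3, Elane, Ms4a3 and Prss57 lie higher in the monocyte-primed cells.

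The comparison of stroke with steady state asks how these progenitors look 24 h after the occlusion. It rests on 215728 UMIs in 26 young and 559572 UMIs in 23 aged members, most of them from 3 and 9 cells, against 3773844 and 2929038 UMIs at steady state. Of 5627 genes with a mean of at least 20 CPM over the 4 libraries, 366 (6.5%) were at least 2-fold higher and 1037 (18.4%) at least 2-fold lower after stroke in young members, and 357 (6.34%) and 1041 (18.5%) in aged members. In both ages 241 genes (4.28%) were higher and 618 (11%) lower by that much. The young and aged comparisons share no library. All 8213 young and 6389 aged steady-state cells in the table passed the UMI and mitochondrial limits, but only 2265 of 2858 young and 2655 of 3017 aged cells after stroke did. The sources used here do not say whether the libraries of both contexts were processed alike, and the part of processing in these differences was not tested.

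Irf8, Ms4a6c, Cx3cr1 and Lyz2 were lower in the stroke members, and Prtn3, Ctsg and Ms4a3 were higher, while the azurophil genes Mpo (2137 and 1546 CPM against 2922 and 2833 CPM) and Elane (181 and 357 CPM against 417 and 506 CPM), both of the gate, were lower. Irf8 stood at 297 CPM in young and 159 CPM in aged stroke members, against 1247 and 947 CPM at steady state. Its log2 ratio of stroke over steady state was −2.07 (−2.45 to −1.72) and −2.57 (−2.90 to −2.27), beside −1.59 and −2.17 in neutrophil-primed cells. Ms4a6c stood at 366 and 370 CPM, against 882 and 879 CPM, with ratios of −1.27 and −1.25 beside −0.65 and −0.98. Cx3cr1 stood at 13.9 and 3.57 CPM and Lyz2 at 167 and 98.3 CPM, against 121 and 95.9 CPM and 1109 and 905 CPM.

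Prtn3 stood at 4529 and 5006 CPM in young and aged stroke members, a ratio of 0.92 (0.83 to 1.02) and 0.77 (0.70 to 0.83), beside 0.41 and 0.15 in neutrophil-primed cells. Ctsg stood at 2744 and 3052 CPM, a ratio of 0.57 and 0.62 beside −0.03 and 0.04. Ms4a3 stood at 589 and 1147 CPM, a ratio of 2.84 (2.53 to 3.14) and 3.41 (3.21 to 3.61), beside 0.24 and 0.23. Mif stood at 1808 and 1741 CPM against 810.0 and 969 CPM. The division genes Mki67 and Top2a were lower. Mki67 stood at 97.3 and 69.7 CPM and Top2a at 78.8 and 152 CPM, with ratios of −2.33 and −2.75 and of −3.05 and −2.12. The G2 and M phase list summed to 1548 and 1723 CPM after stroke, against 4478 and 4526 CPM at steady state. It was lower after stroke in the other classes too. In neutrophil-primed cells it summed to 2226 and 1996 CPM against 3400 and 3325 CPM, and in classical monocytes to 3857 and 4023 CPM against 6875 and 6081 CPM. The S phase list of the members did not go along, with 4260 and 3907 CPM against 4062 and 3928 CPM. After thinning, 5 of 5 young and 10 of 11 aged stroke members held at least 5 S phase UMIs. For the G2 and M phase list, 3 of 5 and 6 of 11 did so. At the same time the neutrophil-primed marker list summed to 10203 and 11123 CPM in stroke members, against 7678 and 8397 CPM at steady state. In neutrophil-primed cells it summed to 24900 and 23728 CPM against 29754 and 29870 CPM. The classical monocyte list summed to 1275 and 1398 CPM in stroke members, against 3400.0 and 3286 CPM. It was also lower after stroke in neutrophil-primed cells (1327 and 935 CPM against 2664 and 2280 CPM) and in classical monocytes (6729 and 5547 CPM against 7841 and 8158 CPM). Depth, the looser gate for shallow cells and stroke cannot be told apart in these values.

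The genes with the most even excess after stroke were Gm10736, Gm3699, Rpl6l, Ifitm1, Erh, Gstp1, Snord49b, Ftl1, Rpl15, Pgk1, Tpt1-ps3 and Ndufs5. Several are copies of, or share sequence with, other genes (Rpl6l, Tpt1-ps3, Gm10736, Gm3699, Rpl15, Ftl1, Gstp1). The part of reads with several matching genes in their values was not tested. Gm3699 stood at 92.2 and 170.0 CPM in young and aged members at steady state and at 2109 and 3043 CPM after stroke, with log2 ratios of 4.52 and 4.16 beside 4.52 and 4.09 in neutrophil-primed cells. Erh, a small conserved nuclear protein gene, stood at 56.4 and 67.9 CPM and at 593 and 772 CPM, with ratios of 3.39 and 3.51 beside 3.30 and 3.25. Ifitm1, an interferon-induced membrane protein gene, stood at 110.2 and 134 CPM and at 1534 and 2136 CPM, with ratios of 3.8 and 4 beside 1.69 and 2.87. The genes with the most even deficit were Atp2b4, Mxd4, Ahnak, Pafah1b3, Gas2l3, Cx3cr1, Retnlg, Lyz2, C130089K02Rik, Kif23, Nusap1 and Gria3. Atp2b4, a plasma membrane calcium pump gene, stood at 120 and 124 CPM at steady state and at 4.64 and 3.57 CPM after stroke, with ratios of −4.69 and −5.12 beside −2.31 and −2.50 in neutrophil-primed cells.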

How the data were processed

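Per the labels, droplet 3′ libraries (10x Genomics v3.1) were made from the marrow and blood fractions. A single table of UMI counts, raw and not normalized, was deposited by the authors for 28055 cells and 23016 genes. Per the submitters' processing notes, which give no roles, the tools were STAR 2.5.3a, Cell Ranger 3.0.2, featureCounts 1.6.4, Subread and UMI-tools, and the build was mm10 (GRCm38). The treatment of reads matching more than 1 gene is not stated there. The marrow libraries held 31015927 to 72743805 UMIs.

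The members, gene lists and markers were chosen with earlier results of these data known. Member counts were summed per library and divided by the members' total (CPM); ratios have exact conditional binomial intervals, levels exact Poisson intervals and shares exact Clopper-Pearson intervals, all at 95% and for counting error only. The interval script was tested on simulated data. Comparison classes were gated likewise, B lineage cells by at least 5 CP10k of Cd79a plus Cd79b. B lineage and erythroid cells were planned as classes that should lack the genes. B lineage cells held myeloid transcripts, and erythroid cells were too few. The planned edgeR quasi-likelihood fits over 4 marrow libraries were not made, because they required 30 members per library and the stroke libraries held 26 and 23; this change was made after the data were seen. edgeR 4.0.16 and DESeq2 1.42.0 (R 4.3.3) gave scaling factors only. Named genes were the gate and marker genes, up to 12 per direction ranked by the smaller absolute log2 ratio of both library pairs (mean of at least 20 CPM, pseudocount 5 CPM), list members, and up to 15 and 10 per direction against the other classes (pseudocount 10 CPM). With no test, the ranking alone chose them, and list members were taken by the counting interval. Genes 2-fold apart at steady state were named after their values were seen. Doublets were kept. Scrublet scores (scanpy 1.11.5) above 0.25 served as an alternative. They marked 10 of 316 young and 7 of 189 aged steady-state members, and 1 of 26 young and 0 of 23 aged members after stroke. Of all young and aged cells, 2.68% and 2.13% were marked at steady state and 0.751% and 0.866% after stroke. Gene positions are from GENCODE M21. Scripts used scipy 1.17.1 and numpy 2.4.6 under Python 3.11.15, with pandas 2.3.3 for tables and matplotlib 3.10.9 for figures.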

Additional observations from a re-analysis of the deposited data

Results flagged for a closer look

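In the stroke comparison of the cells that met the gate, 2 genes differed in direction between the ages. Mcpt8, a basophil protease gene, had a log2 ratio of stroke over steady state of 1.05 in aged and −2.31 in young members, from 210 and 2 UMIs after stroke, and 206 of the 210 UMIs lay in 1 cell. Dvl3, a gene of Wnt signalling, had a log2 ratio of −1.64 in aged and 1.28 in young members, from 3 and 9 UMIs after stroke. Neither difference between the ages was tested, since each group had 1 library.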

How the results depend on the processing

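Of 1237 values of 96 genes under the alternatives, 1180 stayed within the counting interval of the reported ratio, 56 moved beyond it and 1 reversed: Mcpt8, aged over young, became −0.21 without cells of at least 20 CP10k of Prss34. Of the values, 25 changed sign, in 15 genes. With an Mpo limit of 20 CP10k the members' shares were 2.58% and 2.03% of young and aged steady-state marrow and 0.486% and 0.151% after stroke, and 10.5%, 9.25%, 7.59% and 1.63% of lineage-leaning progenitors. With a F13a1 plus Ly86 limit of 6 CP10k the steady-state shares were 3.30% and 2.55%, and 12.7% of young lineage-leaning progenitors. Leaving out cells with UMIs of other lineages gave 2.96% and 1.73%, and kept only 162 of 316 young and 71 of 189 aged steady-state members. After stroke, a minimum of 1000 UMIs gave 0.652% in young, and one of 3000 UMIs, added after seeing the data, gave 0.330% and 0.536%.

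Genes 2-fold higher in aged members numbered 4, and 13 without cells of other lineages, where 162 young and 71 aged members were left. They numbered 1 without cells rich in Prss34 and 419 with no filter on low counts. Those 2-fold lower numbered 7, and 18, 6 and 373 in the same order, 4 with the higher F13a1 plus Ly86 limit and 4 without cells rich in Ly6d. Without cells of other lineages 4 of the 4 and 2 of the 7 were kept, and an Mpo limit of 20 CP10k gave 3 and 8 genes and kept 3 and 4. TMM and DESeq2 scaling kept all 4 and all 7. Unthinned cycling shares were 98.7% and 99.5% (S phase) and 91.5% and 96.3% (G2 and M phase).

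The DESeq2 test, the comparisons with each library left out and the class by age and class by stroke terms were not run, because the edgeR fits they vary were not made with 26 and 23 members after stroke. No paired analysis was possible because each group had 1 library. Depth limits the stroke values: 5 young and 11 aged members held at least 3000 UMIs.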

Other observations

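The same gate applied to the blood libraries found 0 of 2029 young cells, which allows a share of up to 0.148%, and 0 of 5342 aged cells, which allows up to 0.0562%. These limits are 3 counts of the total and cover counting error only. These libraries had been sorted as CD11b+ cells with and without Ly6G, per the labels. The young blood cells held 0 Mpo UMIs and the aged ones 7.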
